A study of Mus musculus with 2 samples.

Results

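Fibronectin, 6 matrix metalloproteinases (MMPs) and 3 tissue inhibitors of metalloproteinases (TIMPs) were followed in mouse blood RNA on 1-colour Agilent arrays. The 10 genes, Fn1, Mmp8, Mmp9, Mmp12, Mmp13, Mmp14, Mmp19, Timp1, Timp2 and Timp3, were found by their symbols in the arrays' annotation, which gave 20 of the 56605 probes outside the controls. The heat sample was kept in a water bath at 37 °C for 1 h and then at 38.5 °C for 1 h, and the control sample has no temperature or time in the labels, which also do not say whether animals or drawn blood were warmed. Strain, sex and age are not given in the labels used here, and both RNAs were prepared with a kit that lyses red cells apart from white cells and were then depleted of globin message. The comparison asks which genes the heat affects. The labels mention 3 replicates a line without saying whether an array holds 1 of them or a pool. With 1 array for each group, the differences have neither replicates nor p-values. All differences are heat minus control.

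Fibronectin is a large glycoprotein of plasma and of the extracellular matrix, to which cells attach through integrins. MMPs are zinc-dependent proteases that are made as inactive precursors and cut collagens, gelatin, elastin and other matrix or signalling proteins, and TIMPs are secreted proteins that bind and block their active site. Macrophages and neutrophils are known sources of several of these enzymes, and fibronectin is made by hepatocytes, fibroblasts and macrophages.

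Fn1 was the only member at least 2-fold apart between the arrays, and the 8 other measured members lay within 0.3 of 0 on the log2 scale, as did 87.0% of all measured genes. A probe counted as measured when the scanner software had marked it well above background on both arrays. That held for 14 of the 20 probes and for 9 of the 10 genes, and the other 6 probes, all 3 of Timp3 and 3 of the 4 of Fn1, passed on neither array. Of the 9 measured genes, 4 had a difference above 0 and 5 below 0, with a median of -0.05, against a median of 0.01 over all 18562 measured genes. The 1 member of 9 with an at least 2-fold lower signal stands beside 84 of all measured genes, or 0.453%, that were 2-fold lower and 0.663% that were 2-fold apart in either direction. The genes were selected on their family with heat minus control values of these arrays known, those of Fn1 and Mmp8 among them, so the members' count is a description.

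In these arrays a single spot is the smallest unit of error. The scanner software gives each spot an error, which for the measured member probes amounts to an error of 0.20 to 0.30 on the log2 difference. It comes from the software's error model and is not a spread observed between spots. At bright spots it is close to a fixed share of the signal, such as 443 of 4434 and 3754 of 37535 in the heat sample. The spread (SD) of log2 differences between spots of one probe was 0.08 over 283 probes printed at 10 spots. Both are errors within a slide and say nothing of the spread between animals. Only the Fn1 probe differed by more than 2 such scanner errors, and 10 of the 14 measured probes differed by less than 1. The scanner error of a gene combines those of its probes as if they were independent.

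The Fn1 result rests on 1 probe of 4, and the probes' coordinates show where along the gene each one lies. On mm9 the gene's probes lie on the minus strand of chromosome 1. In order along the gene, the first is at chr1:71694694-71695800 and the third at chr1:71637422-71639659, and each covers more genome than its 60 bases, so both cross an exon junction. The second lies at chr1:71650690-71650749. The third and last were designed on the same transcript record, and the first and second each on a different one. The last lies furthest toward the 3′ end, at chr1:71632116-71632175, and starts at base 8296 of its record, against base 7252 for the third. The first starts at base 769 of its own record. For the last probe the first 30 bases are printed, and both junction probes are printed whole.
Fn1 probe from base 769: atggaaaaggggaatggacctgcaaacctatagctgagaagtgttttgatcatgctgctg
Fn1 probe from base 7252: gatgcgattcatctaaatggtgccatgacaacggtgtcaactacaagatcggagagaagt
Fn1 probe from base 8296, first 30 bases: ggtgattatttttataagcacatgccaacg

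At the last of these probes the processed signal was 161 ± 17.1 in the heat sample and 437 ± 44.2 in the control sample (scanner error). The heat sample was the lower one. After scaling, the difference was -1.40, with a scanner error of 0.21, which is 2.64-fold lower in the heat sample. The uncorrected mean signal at that spot was 194 in the heat sample and 442 in the control sample, over local backgrounds of 41.0 and 38.0. In bulk RNA, fewer cells of a type and less RNA per cell cannot be told apart.

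The 3 other Fn1 probes gave no measured difference. The probe from base 769 had signals of 5.07 in the heat sample and 6.21 in the control sample, and the second probe along the gene had 5.45 and 6.92. The probe from base 7252 had 5.64 in the heat sample and 28.6 in the control sample, and the lowest signals that counted as well above background were 24.9 (heat) and 31.0 (control). Its heat signal had a scanner error of 5.67, larger than the signal itself, and its difference was less than 2 scanner errors. This probe was below the detection flag on both arrays, so its lower heat signal is no second reading of the Fn1 difference. Genes of a level like that of Fn1, 928 in all, had differences from -0.30 to 0.28 between their 5th and 95th percentiles, and 6 of them, Fn1 included, were at least 2-fold lower.

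**Figure D1:**
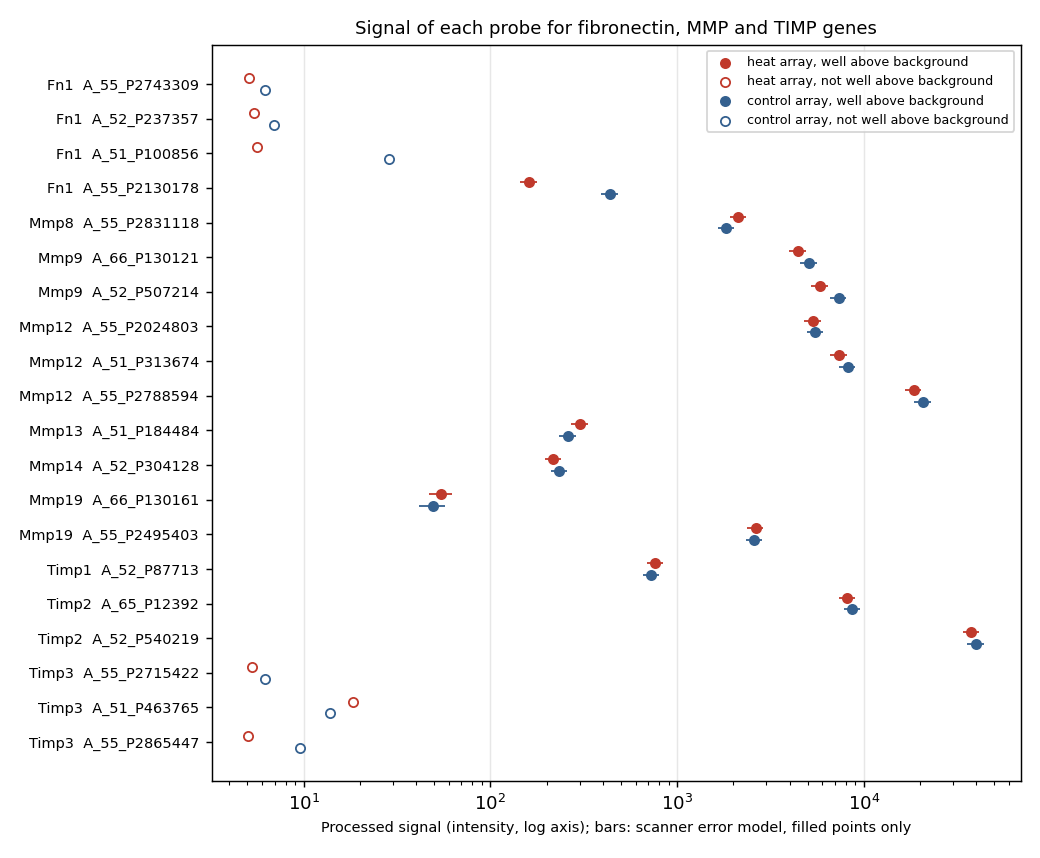
Processed signal (horizontal log axis) of each of the 20 probes for heat (red, upper point) and control (blue, lower point), with bars for the scanner's error; open points were not well above background. The last Fn1 probe sits at 161 for heat and 437 for control, while the points of every other measured probe lie close together.

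Mmp12, Mmp9 and Timp2 had several bright probes each, and with the 75th percentile scaling the probes of each gene went the same way. Mmp12 encodes macrophage elastase. Its 3 probes had signals of 5334, 7349 and 18469 in the heat sample and 5503, 8185 and 20674 in the control sample, in transcript order. All 3 were slightly lower in the heat sample after scaling, with differences of -0.01, -0.12 and -0.12, and the gene's mean of -0.08 was within its scanner error of 0.12.

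Mmp9 encodes gelatinase B, a protease of neutrophil granules that macrophages and osteoclasts also make. Its 2 probes, at chr2:164779091-164780300 and chr2:164780620-164780679, had signals of 4434 and 5806 in the heat sample and 5070 and 7310 in the control sample. The differences of -0.16 and -0.29 averaged -0.22, with a scanner error of 0.14. This value lay just outside the 5th percentile of -0.20 for genes of like level.

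Timp2, an inhibitor that also takes part in the activation of gelatinase A by Mmp14, had signals of 8125 and 37535 in the heat sample and 8666 and 39820.5 in the control sample. Both probes were 0.05 lower in the heat sample, but with normexp and quantile normalization the brighter one was at 0.02 and the other at -0.23. The junction-crossing probes of these 3 genes are printed because they read spliced transcript: they lie at chr9:7354810-7355325 for Mmp12, chr2:164779091-164780300 for Mmp9 and, on the minus strand, chr11:118171964-118178741 for Timp2 (mm9).
Mmp12 probe from base 1062: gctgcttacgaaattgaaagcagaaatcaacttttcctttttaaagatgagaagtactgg
Mmp9 probe from base 2065: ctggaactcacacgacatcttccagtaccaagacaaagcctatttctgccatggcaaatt
Timp2 probe from base 652: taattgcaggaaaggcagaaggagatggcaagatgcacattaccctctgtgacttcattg

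The collagenase genes Mmp8 and Mmp13 had the highest differences among the members, each at 1 probe. Mmp8, the neutrophil collagenase, had a signal of 2122 in the heat sample and 1829 in the control sample, a difference of 0.25 with a scanner error of 0.20. That was above the 95th percentile of 0.22 for genes of like level. With normexp background correction, which models each spot's background before the log, it was 0.10 (75th percentile scaling) and 0.11 (quantile normalization). Mmp13, a collagenase of cartilage and bone, had 302 in the heat sample and 259 in the control sample, a difference of 0.26 with a scanner error of 0.21, and its values with normexp were 0.14 and 0.11.

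The remaining members differed by less than their scanner error. Mmp14, a protease anchored in the cell membrane, had 217 in the heat sample and 234 in the control sample, a difference of -0.07 that turned to 0.01 with normexp and the 75th percentile. Mmp19 was read by 2 probes, with signals of 54.6 and 2631 in the heat sample and 49.5 and 2593 in the control sample. Their differences of 0.18 and 0.06 had the same sign, although 1 of them gave a dim signal on both arrays. Timp1, an inhibitor of secreted MMPs that many cells make on stimulation, had 764 in the heat sample and 728 in the control sample, a difference of 0.11 with a scanner error of 0.20.

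Timp3, the inhibitor that binds to the matrix, was not well above background in either sample. Its 3 probes had signals of 5.29, 18.3 and 5.06 in the heat sample and 6.20, 13.9 and 9.61 in the control sample, in order along the gene. These values lie under the lowest detected signals given above, so Timp3 has no fold. Signals of different probes depend on the probe as well as on the transcript, so no order of level between the genes was drawn.

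**Figure D2:**
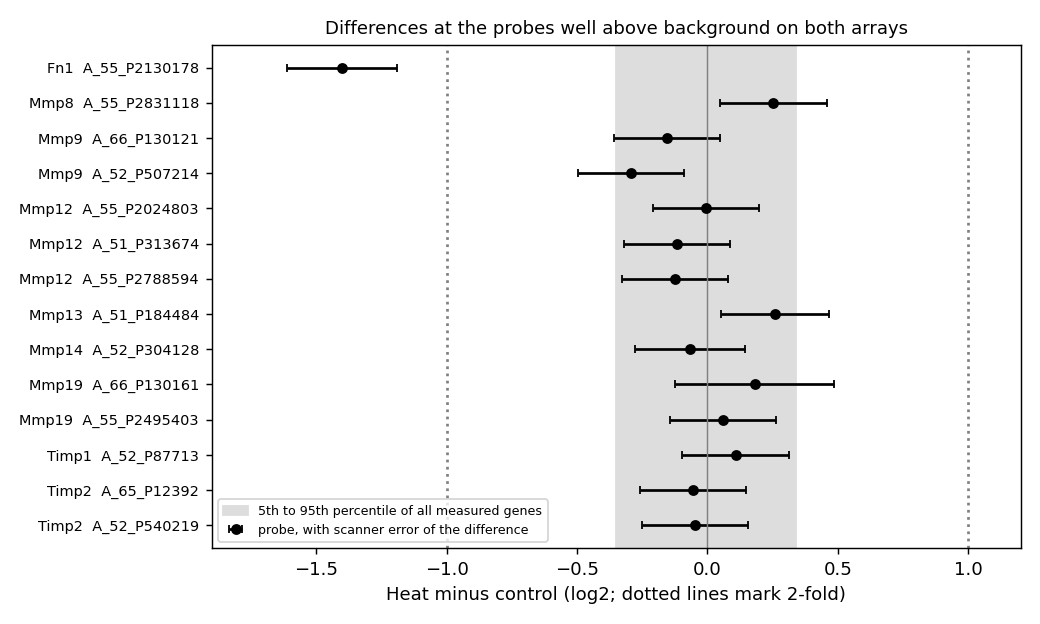
Heat minus control (horizontal axis, log2) at the 14 probes well above background on both arrays, with bars for the scanner error of the difference, over the 5th to 95th percentile of all measured genes (-0.35 to 0.34, grey). Fn1 lies at -1.40, left of the 2-fold line, and the other 13 probes lie inside the grey band.

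**Figure D3:**
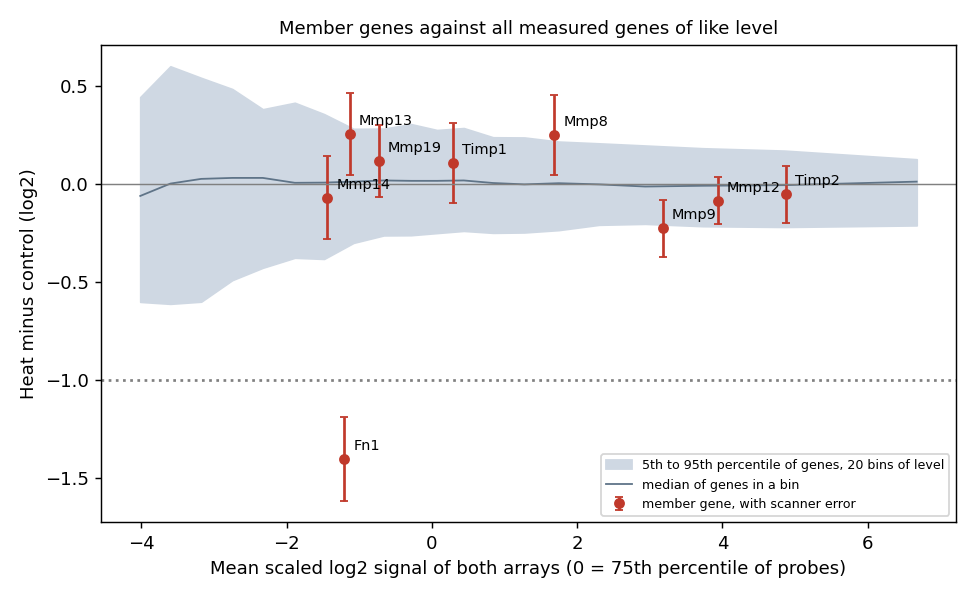
Heat minus control of the 9 measured genes (vertical axis, log2) against their mean scaled log2 signal (horizontal axis), with scanner errors, over the 5th to 95th percentile of all measured genes in 20 bins of level. Fn1 lies far below the band at its level, Mmp8 at 0.25 just above it and Mmp9 at -0.22 just below it.

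Mmp8, Mmp12 and Mmp13 belong to a run of MMP genes on chromosome 9. By the probes' mm9 coordinates, 10 MMP genes lay between chr9:7282762 and chr9:7699535, a span of 416.8 kb. In that order they were Mmp13, Mmp12, Mmp1b, Mmp3, Mmp1a, Mmp10, Mmp8, Mmp27, Mmp20 and Mmp7. Measured and unmeasured genes were interspersed: 5 of the 10 were measured, and Mmp1b, Mmp3, Mmp1a, Mmp20 and Mmp7 had no signal above 5.68 in the heat sample or 6.94 in the control sample. Mmp10, or stromelysin 2, had 56.0 in the heat sample and 46.0 in the control sample, a difference of 0.32. Mmp27 had 517 in the heat sample and 427 in the control sample, also a difference of 0.32. Of the 5 measured genes of this run, 4 had differences above 0, and Mmp12 had -0.08. Over all measured genes, 47.8% were below 0, so the signs of these 5 genes are a description only.

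The activator protein 1 (AP-1) factors, dimers of FOS and JUN proteins, are known regulators of MMP promoters, so their binding motif was looked for in the 250 bases before the start sites of the members. RefSeq promoters of GRCm38.p6 were at hand for 7 of the 10 genes, Mmp8, Mmp12, Mmp13, Mmp14, Timp1, Timp2 and Timp3. The letters TGANTCA, which read the same on both strands, were present in 2 of the 8 promoters of these 7 genes, and in 6.75% of all 32851 promoters in that table. They stood 35 bases before the start site of Mmp13 and 44 bases before 1 of the 2 start sites of Mmp12. Stretches around both are printed with the motif in capitals, on the plus strand at chr9:7272453-7272511 for Mmp13 and chr9:7347304-7347362 for Mmp12 (GRCm38.p6). A match of letters is a description and no evidence of binding.
Mmp13 promoter: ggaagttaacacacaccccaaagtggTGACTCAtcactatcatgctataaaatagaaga
Mmp12 promoter: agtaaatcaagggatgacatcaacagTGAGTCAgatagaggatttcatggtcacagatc

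All 14 listed transcription factors that act on MMP promoters were measured, 5 with a difference above 0 and 9 below, and none was 2-fold apart. Their median was -0.07. Of all measured genes, 47.8% were below 0 and 0.663% were 2-fold apart, so these counts are a description only. Fosl1, an AP-1 subunit, had a difference of -0.64, with signals of 140 in the heat sample and 224 in the control sample. Runx2, the bone regulator that acts on Mmp13, had -0.62 at its 1 measured probe, with signals of 36.6 and 57.6 (heat and control). Stat3, a factor downstream of cytokine receptors, had 0.32. The AP-1 subunit gene Fosb had 0.31 at 1 measured probe of 2, with dim signals of 54.1 and 44.9 (heat and control). The brighter AP-1 genes Fos and Jun had -0.13 and -0.19.

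Of 87 related genes reported in 8 lists, 55 were measured, 22 with a difference above 0 and 33 below, with a median of -0.04, and none of these 55 was 2-fold apart. The shares over all measured genes were 47.8% below 0 and 0.663% 2-fold apart. They stand beside the counts of each list that follows, which are descriptions only. Plasminogen activation is a protease cascade that can activate pro-MMPs. Of the 4 genes measured in its list, 3 were below 0, and the median was -0.21. Serpine2, which encodes protease nexin 1, had -0.80, with signals of 543 in the heat sample and 968 in the control sample. Plau, the urokinase gene, had -0.38 with both probes below 0, and Plaur, the urokinase receptor gene, had -0.04. Serpinb2, a serine protease inhibitor gene, had 0.36.

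Among fibronectin receptors and surface partners, 3 of 11 measured genes had differences above 0 and 8 below, with a median of -0.12 and none 2-fold apart. The integrin chain genes Itga8 and Itgav had -0.45 and -0.31, although the 4 probes of Itgav ranged from -0.75 to 0.07. Itga8 was measured at 1 probe of 2, with dim signals of 63.0 in the heat sample and 88.3 in the control sample. Itga5, which with Itgb1 forms the main fibronectin receptor, had -0.15 at 1 probe, and Itgb1 had -0.12, with its 3 probes from -0.32 to 0.05. Itgb7 had 0.31 and Tgm2, which encodes a transglutaminase that crosslinks fibronectin, had 0.18.

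The other MMP genes were mostly undetected, with 12 of 17 well above background on neither array. Mmp28, or epilysin, had 284 in the heat sample and 224 in the control sample, the highest difference of the 4 measured at 0.38, and the median of these 4 was 0.32. Mmp17, whose product is anchored in the membrane, differed by less than 0.01. Mmp11 was well above background in the control sample only. The inhibitor genes Timp4, Reck and A2m were detected on neither array.

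Adam8, Adam9, Adam10, Adam15 and Adam17 were each below 0, by 0.11 at most. Of the 8 measured ADAM and ADAMTS genes, which encode related metalloproteinases, 2 were above 0 and 6 below, with a median of -0.07. The dim Adam12 was lowest at -0.38, with signals of 27.4 in the heat sample and 36.7 in the control sample, Adam19 had 0.10, and Adamts10 was highest at 0.25 over 5 probes.

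Genes whose products activate, bind or clear MMPs had a median of 0.05, with 6 of 9 above 0. Lrp1, the endocytic receptor that takes up MMP9 and TIMP complexes, had 0.32, but its 3 probes ranged from 0.03 to 0.58, and the neutrophil protease gene Ctsg had -0.13. Lcn2, whose product forms a complex with MMP9, had 0.11, and Bsg, an inducer of MMPs, had 0.09.

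Collagen genes, which encode MMP substrates, were largely undetected: Col1a1, Col3a1, Col4a2 and the elastin gene Eln were well above background on neither array. Col1a2 had -0.57, at 1 measured probe of 4, with signals of 44.3 in the heat sample and 67.5 in the control sample. Of 5 measured matrix genes 2 were above 0 and 3 below, with a median of -0.03. Vcan, which encodes versican, and Sparc had 0.17 each, with the 2 probes of Sparc at -0.71 and 1.05, and Thbs1, the thrombospondin 1 gene, had -0.14.

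**Figure D4:**
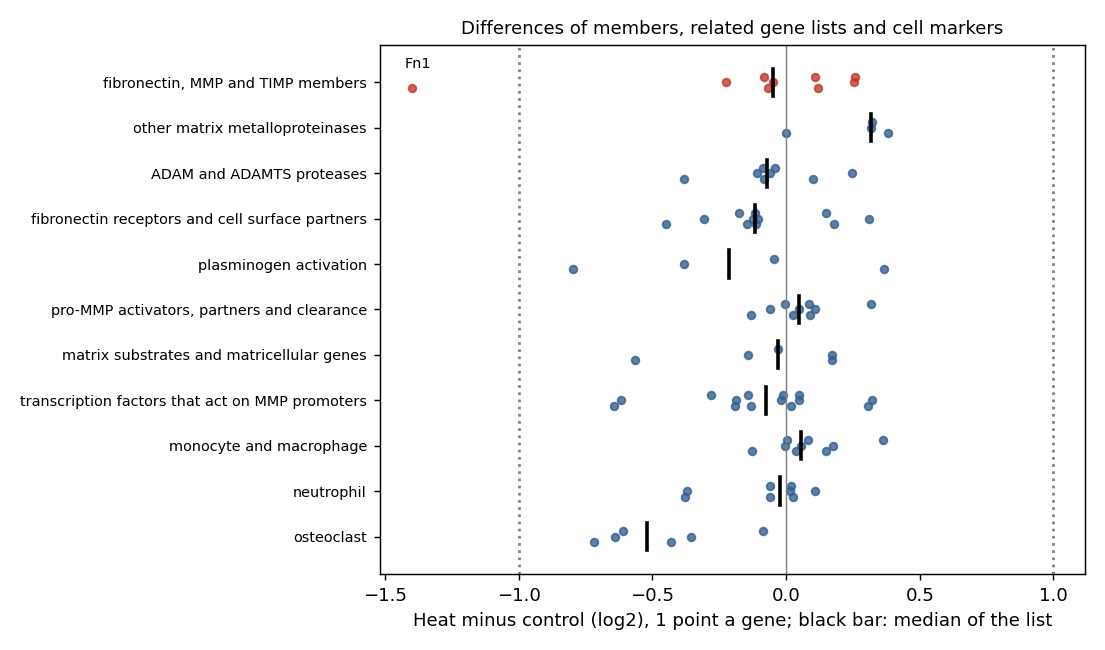
Heat minus control (horizontal axis, log2) of each measured gene of the members, the related lists and 3 marker lists, with a black bar at each list's median and dotted lines at 2-fold. Fn1 at -1.40 lies past the 2-fold line, and all 6 osteoclast markers lie below 0.

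The labels give blood as the tissue. Markers of red cells, platelets, B cells and NK cells were mostly undetected, and those of neutrophils and T cells mostly detected. Markers of macrophages and osteoclasts on the array were all detected. The origin of the RNA beyond its label was not tested. All 9 monocyte and macrophage markers on the array were detected in both samples, with summed signals of 379188 in the heat sample and 380969 in the control sample. Of the neutrophil markers 8 of 10 were detected, without Cxcr2 and Ly6g. Their summed signals of 59297 (heat) and 60208 (control) were mostly Csf3r, with 51463 and 52348. S100a9 had 4137 and 3939, while Ngp, Camp, Ltf and Mpo lay between 104 and 341 on both arrays. Of the red cell markers 2 of 7, of the platelet markers 1 of 6, of the B cell markers 2 of 6 and of the T cell markers 5 of 7 were detected. Of 6 NK cell markers, 2 were detected in the heat sample and 1 in the control sample. Hbb-b1, Alas2, Itga2b, Cd79a and Ms4a1 were not well above background in either sample. The platelet marker Pf4 had 11483 (heat) and 9824 (control). At their brightest probes, the B cell marker Cd22 had 516 and 528 (heat and control) and the T cell marker Cd28 had 3313 and 2664. These were the brightest of their lists. The T cell markers Cd4 and Cd3e had 1447 and 467 (heat) and 1410 and 449 (control). Lck and Cd3d were dim, at 82.5 and 59.4 (heat) and 76.8 and 49.8 (control), and Cd3g and Cd8a were undetected. Red cells were lysed apart and globin message was depleted, as given above. All 6 hepatocyte markers were undetected, as were Col1a1, Col3a1, Lum, Pdgfra and Pdgfrb among 9 fibroblast markers. Of the fibroblast list, 4 genes were detected in the heat sample and 2 in the control sample, with summed signals of 825 and 735. Most of these sums was Dcn, with 729 and 635 and a difference of 0.24.

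A list of 6 osteoclast markers lay lower in the same sample as Fn1. All 6 were detected on both arrays with differences below 0, with a median difference of -0.52 and summed signals of 90450 in the heat sample and 133898 in the control sample. Acp5, the tartrate-resistant acid phosphatase gene, had -0.61, and its signals of 59209 (heat) and 92767 (control) made up most of these sums. Dcstamp, a gene of osteoclast fusion, was lowest at -0.72, Ctsk had -0.35, and Atp6v0d2 was nearest 0 at -0.09. Acp5, Ctsk, Calcr and Ocstamp were each measured at 1 probe. Of all measured genes, 47.8% were below 0, and their 5th percentile was -0.35. Of 5 osteoblast markers 3 were measured, each at 1 probe. Alpl had -4.09 at 1 of its 2 probes, with signals of 61.7 in the heat sample and 1080 in the control sample. The dim Runx2 had -0.62 at 1 of its 3 probes, and Sp7 was near 0 at -0.03. The part of these markers in the Fn1 difference was not tested. Mmp9 and Mmp14, which osteoclasts are also known to express, stood at -0.22 and -0.07.

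**Figure D5:**
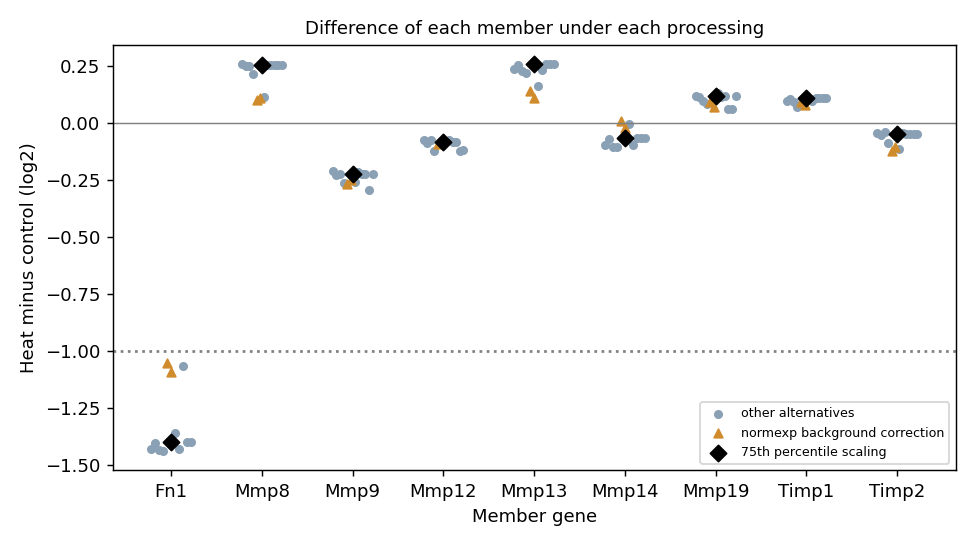
Heat minus control (vertical axis, log2) of each of the 9 measured genes under the 75th percentile scaling (diamond), normexp background correction (triangles) and the other alternatives (circles). Fn1 lies below the 2-fold line in every setting that kept its probe, between -1.44 and -1.05, and the other genes lie within 0.3 of 0.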

How the data were processed

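Blood RNA of 1 heat and 1 control sample was read on Agilent 1-colour (Cy3) arrays. Scans were quantified, per the file headers, with protocol GE1_107_Sep09 of Agilent Feature Extraction 10.7.1.1 and have mm9 coordinates, while the submitters' processing notes name version 9.1. The deposited intensity values are the software's processed signal, its error, the mean signal and the local background, with flags of detection, saturation and outlier status as other columns. The authors' deposited log2 values matched quantile-normalized log2 processed signals (r of 1.00 on each array, same direction, median 5.27 in each column).

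Outlier spots (168 heat, 149 control) were left out, none was saturated, and log2 signals were averaged per probe and reduced by each array's 75th percentile (604 and 621 before log2). A gene, by the files' name, is the mean of its probes flagged well above background in both samples (28755 in all). The RefSeq records of 18 member probes all carried the member's symbol in the GRCm38.p6 table. From the related lists 1 gene was left out and is not reported here, so counts and medians of those lists cover the other genes. A difference of 1 (2-fold) was counted. Members and lists were chosen with earlier results of these data known. All members were named, with up to 4 genes of each list with the largest differences; others, such as Fos, Jun, Itga5, Itgb1, the brighter Adam genes, Mmp11 and the markers, were named for their roles after values were seen. The steps were tested on simulated data with a spot SD of 0.15 (log2), which checks the code and says nothing of the spread between samples. Alternatives were quantile, median and cyclic loess scaling, no scaling, normexp (offset 50), mean minus local background, the authors' values, other filters on dim probes, other probe summaries and other fold thresholds. R 4.3.3, limma 3.58.1, Python 3.11.15 and pandas 2.3.3 were used.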

Additional observations from a re-analysis of the deposited data

How the results depend on the processing

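The number of arrays limits the precision: with 1 array a group, spread between animals is unknown, and slide position and handling cannot be told apart from heat. No paired analysis was possible because each group held 1 sample. Fn1 stayed below 0 under every alternative that kept its probe. Its difference was -1.05 with normexp and the 75th percentile, -1.09 with normexp and quantile normalization and -1.07 with no filter on dim probes, which averages all 4 probes, against -1.40. No member was 2-fold apart among the brighter detected probes (those above the median level), where the Fn1 probe is left out (0 of 6), or at 4-fold (0 of 9). The other 8 genes moved by less than their scanner error, and of the gene values only that of Mmp14 changed sign, with normexp and the 75th percentile (0.01). Of single probes, 1 of Timp2 turned to 0.02 with normexp and quantile normalization and to 0.01 with mean minus local background, and 1 of Mmp12 to above 0 with quantile normalization, by less than 0.01. Against 123 genes 2-fold apart, there were 36 and 38 with normexp (75th percentile and quantile), 1735 without the filter, 17 among the brighter probes, 553 at 1.5-fold and 11 at 4-fold. The cause of these shifts was not tested beyond the settings themselves. The member probes of Timp3 carry no information on a change.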
